A study of Mus musculus with 2 samples.

Results

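The cells described here are the vascular smooth muscle cells of a mammary gland single-cell RNA series: 133 barcodes, 86 in a wild-type (WT) library and 47 in a library labelled Fgd5-ko. They were taken from 17677 barcodes, of 19533 deposited, that had at least 1000 unique molecular identifiers (UMIs, each standing for 1 captured RNA molecule), at least 500 genes and at most 15% mitochondrially encoded UMIs. A barcode was kept when Pln, Rergl, Nrip2 and P2rx1 together gave at least 3 UMIs and more than Kcnj8, Abcc9 and Higd1b, when Acta2 gave at least 10 UMIs, and when Krt5 and Krt14 together gave fewer than 10. The cells set beside them are the basal, or myoepithelial, cells of the same libraries, defined by at least 10 Acta2 UMIs and at least 10 UMIs of Krt5 and Krt14, which number 5184 and 6149. Throughout, paired values joined by "and" are for the WT library and the library labelled Fgd5-ko, in that order.

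The series compared mammary basal epithelium of WT mice with that of mice in which Fgd5, an exchange factor for the small GTPase Cdc42, was depleted. Both libraries came from C57BL/6 mammary gland, were sorted for CD24highCD29+ cells and were made with the 10x Genomics 3' V3 kit, and there was 1 library per genotype. The Fgd5-ko title carries the letters cko, and the labels do not explain P4 in the titles, the age of the mice, how many were pooled, or the promoter or cell type in which Fgd5 was removed. With 1 library per genotype, no test between genotypes can be made. The comparison with basal cells is the one that chose the cells, so it too is given as a description.

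Vascular smooth muscle cells ring arteries and arterioles, and their contraction, driven by calcium entry and by calcium release from the sarcoplasmic reticulum, sets vessel width. Nitric oxide relaxes them through soluble guanylate cyclase and cyclic GMP, and Notch3 with its Hey-family targets maintains them in the vessel wall. Mammary myoepithelial cells also carry smooth muscle actin and myosin, but they are epithelial, rest on the basement membrane of ducts and alveoli, and contract to oxytocin to eject milk.

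The whole matrices held 60566053 and 136697801 UMIs over 31053 features. The vascular smooth muscle cells had a median of 3551 UMIs (1778 to 12522) and 6950 (2028 to 24680), and the basal cells had medians of 5404 and 16850. Summed over cells, the vascular smooth muscle class held 342498 and 357706 UMIs. Levels below are these sums as UMIs per 1000000 of the class total (CPM), with the level in basal cells in brackets where it is given. Ratios carry exact 95% intervals, which reflect counting error alone. Fgd5, the targeted gene, was not lower in the library that its label names: in endothelial cells (at least 3 UMIs of Pecam1, Cdh5 and Kdr, fewer than 10 of Acta2 and fewer than 10 of the keratins) it stood at 90.3 and 111 CPM, and in basal cells at 2.22 and 4.71. The 3' tags may lie outside the deleted part and then check nothing. In vascular smooth muscle cells Fgd5 had 5 and 2 UMIs. The matrices shared 34 barcodes, none of them among the vascular smooth muscle cells. None of the 86 and 47 cells was in the authors' table of cells, a count of 0 that allows, at 3 counts of the total, shares of up to 3.49% and 6.38%, although 86 and 45 lay within its range of UMIs per cell. Of the basal cells, 4813 and 5651 were listed. The sort sets how many vessel cells entered each library, so the shares of 0.859% (0.687% to 1.06%) and 0.613% (0.451% to 0.815%) of filtered barcodes describe these sorted suspensions.

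The genes of the rule chose the cells, so their levels are a description only. Pln encodes phospholamban, the brake on the calcium pump of the sarcoplasmic reticulum, and stood at 263 and 361 CPM (basal cells 1.16 and 0.709). All 4 were low in basal cells of both libraries. Rergl, a small Ras-like GTPase, stood at 225 and 399.8 CPM (basal cells 0.326 and 0.6). P2rx1, the ATP-gated cation channel through which sympathetic nerves contract arteries, stood at 289 and 279.6 CPM (basal cells 0.415 and 0.245). Nrip2, a nuclear receptor-interacting protein, stood at 768 and 450.1 CPM (basal cells 6.11 and 3.90). Krt5 and Krt14 were at 0 UMIs in 73 of 86 and 28 of 47 cells and never summed above 8 and 9.

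Markers outside the rule were also present. Tesc, the calcium-binding protein tescalcin, stood at 388 and 375 CPM (basal cells 1.10 and 1.02). Rbpms2, an RNA-binding protein of smooth muscle, stood at 304 and 240.4 CPM (basal cells 4.89 and 3.36). Over 5 such markers (Tesc, Rbpms2, Map3k7cl, Mustn1 and Olfr558), at least 2 were detected in 83 of 86 and 47 of 47 vascular smooth muscle cells, against 28 of 5184 and 61 of 6149 basal cells. When each cell was thinned to 1000 UMIs, so that depth could not set the shares, these became 65.1% and 61.7% of vascular smooth muscle cells, 0.0386% and 0.0651% of basal cells, and 0.0663% and 0.517% of endothelial cells. The 5 markers were chosen with earlier results of these data known. Tesc, Map3k7cl, Mustn1 and Olfr558 are among the genes named as highest against basal cells in these same data. The choice favoured high shares in vascular smooth muscle cells and low shares in basal cells. Those shares are therefore a description and not independent evidence for the class. The endothelial cells had median depths of 3776.5 and 8422 UMIs. They held Mustn1 at 72.5 and 62.7 CPM, above its 9.10 and 3.57 CPM in basal cells, so their shares are a comparison and not a measure of free RNA. The list of 11 vascular smooth muscle markers includes the 4 rule genes, whose ratios the selection fixed. Of the list 9 were at least 4-fold higher than in basal cells in both libraries, 4 of them the rule genes, and Lmod1 and Myh11 were not. Of all 5594 genes averaging 20 CPM or more over the 4 sums, 7.03% were that much higher, 3.61% that much lower and 59.6% within 2-fold. These counts describe the members that pass that mean, some of which pass through 1 class alone.

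**Figure D1:**
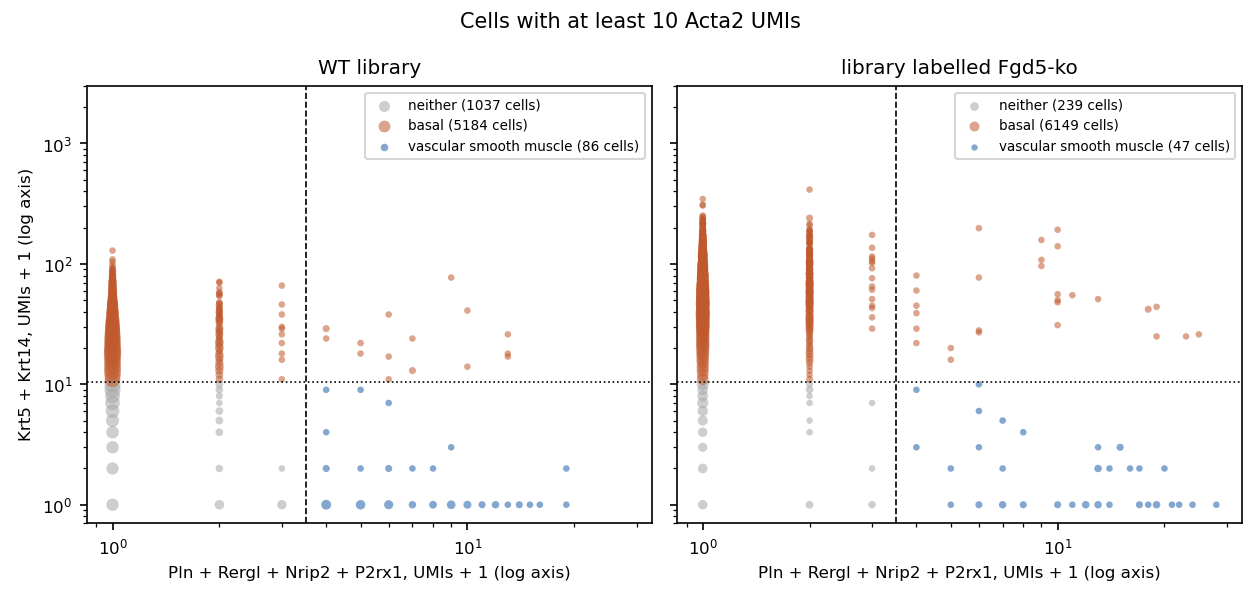
Each point is a set of cells with at least 10 Acta2 UMIs that share a pair of values (size grows with the number of cells), with the summed UMIs of Pln, Rergl, Nrip2 and P2rx1 on the horizontal axis and of Krt5 and Krt14 on the vertical axis, both plus 1 on log axes; dashed and dotted lines mark the limits of the rule. The 86 and 47 vascular smooth muscle cells sit at the lower right, most of them at 0 keratin UMIs, and the basal cells along the left edge.

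More WT cells lay at the limit on the rule genes, and more Fgd5-ko cells above the limit on keratins. At exactly 3 UMIs of the 4 rule genes there were 21 and 2 cells, and 13 and 2 others had 2 UMIs and met every other condition. Just below the keratin limit, with 5 to 9 UMIs, there were 3 and 3 cells. Above it, 8 and 1 cells with 10 to 19 keratin UMIs met every other condition, as did 9 and 25 cells with 20 or more, and Tesc or Rbpms2 was detected in 8 and 23 of these last. The latter had median depths of 11667 and 20530 UMIs and count among the basal cells. No doublet caller was run, so whether they hold RNA of 2 cells was not tested. The Acta2 limit touched little: 8 and 0 cells had 10 to 19 Acta2 UMIs, and 1 and 1 cells below 10 met the other conditions.

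Other cell types were represented unevenly. The 9 endothelial markers summed to 826 and 308 CPM in the vascular smooth muscle cells, against 7204 and 7405 CPM in endothelial cells and 134 and 46.0 CPM in basal cells, with no marker at 0. At least 3 UMIs of Pecam1, Cdh5 and Kdr were found in 10 and 3 of the cells. The 8 fibroblast markers summed to 1261 and 621 CPM with none at 0, and 2 and 1 cells held at least 10 fibroblast UMIs. Their part in the results was not tested. The counts of genes without the 18 and 8 cells that carry genes of other types are given at the end. The listed blood cell markers were sparse. The 7 T and NK markers summed to 35.0 and 16.8 CPM with 6 and 4 of them at 0. The 8 myeloid markers summed to 46.7 and 8.39 CPM with 4 and 6 at 0, and all 5 erythroid markers were at 0. These lists held no immunoglobulin gene. In the library labelled Fgd5-ko 1 cell held all 46 UMIs of the immunoglobulin gene Igkc, and 1 WT cell held all 80 of the chemokine gene Ccl4. Of the 7 skeletal muscle markers, Des carried nearly all UMIs and Acta1 stood at 5.84 and 0 CPM.

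The contractile apparatus was shared in part by both cell types. All 30 listed genes passed the mean of 20 CPM. In both libraries, 8 were at least 4-fold higher in vascular smooth muscle cells, 2 were at least 4-fold lower and 8 were within 2-fold. The median log2 ratios were 1.03 and 1.22, against 0.12 and 0.05 over all 5594 genes. Acta2, the smooth muscle actin that the rule required of both classes, stood at 14593 and 10019 CPM (basal cells 10612 and 6919), log2 ratios of 0.46 (0.42 to 0.50) and 0.53 (0.49 to 0.58). The floor of 10 Acta2 UMIs takes a larger share of a shallow cell, and the vascular smooth muscle cells were the shallower class. The part of the floor and of depth in the Acta2 ratios was not tested. Tagln, the actin-binding protein transgelin, was 1.63-fold and 2.46-fold higher.

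Genes of the motor and its switch were higher in the vessel cells. Myh11, the smooth muscle myosin heavy chain, stood at 2020.5 and 2250.4 CPM (basal cells 685 and 651), log2 ratios of 1.56 (1.45 to 1.67) and 1.79 (1.69 to 1.89). After thinning, 80.2% and 91.5% of vascular smooth muscle cells, 45.0% and 44.3% of basal cells and 0.796% and 1.29% of endothelial cells held a Myh11 UMI (unthinned, 96.5% and 100%, 89.9% and 98.0% and 3.38% and 11.1%). Myl9, the regulatory light chain whose phosphorylation starts contraction, stood at 5863 and 4314 CPM (basal cells 1439 and 932), 4.07-fold and 4.63-fold higher. Mylk, the kinase that phosphorylates it, was 1.57-fold and 2.20-fold higher. Genes that act on the opposing phosphatase had wider ratios. Ppp1r14a, its inhibitor CPI-17, stood at 1203 and 721 CPM (basal cells 81.0 and 54.3). Its ratios were 14.9-fold and 13.3-fold higher, and Ppp1r12b, a targeting subunit of that phosphatase, was 10.3-fold and 11.1-fold higher.

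The widest contractile differences were those of Mustn1, Des and Ldb3, which striated muscle also uses. Des, the intermediate filament desmin, stood at 528 and 713 CPM (basal cells 2.88 and 4.30), log2 ratios of 7.52 (7.16 to 7.89) and 7.37 (7.15 to 7.59). Mustn1, a small nuclear protein of muscle, stood at 2307 and 1202 CPM (basal cells 9.10 and 3.57). Ldb3, a Z-disc scaffold, stood at 64.2 and 64.3 CPM (basal cells 0.771 and 0.439). Synpo2, an actin-bundling protein, was 7.38-fold and 7.76-fold higher. These genes were at low levels in basal cells of both libraries.

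Cnn1 and Actg2 went the other way, lower in vascular smooth muscle cells of both libraries. Cnn1, the actin-binding calponin that is often used as a smooth muscle marker, stood at 140.1 and 61.5 CPM (basal cells 663 and 508), log2 ratios of -2.24 (-2.68 to -1.83) and -3.05 (-3.72 to -2.45). Unthinned, 22 of 86 and 14 of 47 vascular smooth muscle cells held a Cnn1 UMI, against 89.8% and 96.3% of basal and 2.85% and 6.98% of endothelial cells. After thinning, 9 of 86 and 0 of 47 did, against 44.9% and 38.9% of basal cells and 1.13% and 0.775% of endothelial cells. The thinned count of 0 of 47 allows, at 3 counts of the total, a share of up to 6.38% at that depth. Actg2, the actin of gut and bladder muscle, stood at 75.9 and 47.5 CPM (basal cells 386 and 303), and 17 of its 26 UMIs in the WT library and 10 of 17 in the other came from 1 cell. Actg2 was found in 6 of 86 and 7 of 47 vascular smooth muscle cells and in 3084 of 5184 and 4990 of 6149 basal cells. Smtn, smoothelin, stood at 81.8 and 44.7 CPM (basal cells 129.6 and 85.2). Pdlim3, an actinin-binding LIM protein, stood at 251 and 291 CPM (basal cells 257 and 289.6). Csrp1, another LIM protein, stood at 1299 and 976 CPM (basal cells 1456 and 863), with ratios on either side of equality in the 2 libraries.

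**Figure D2:**
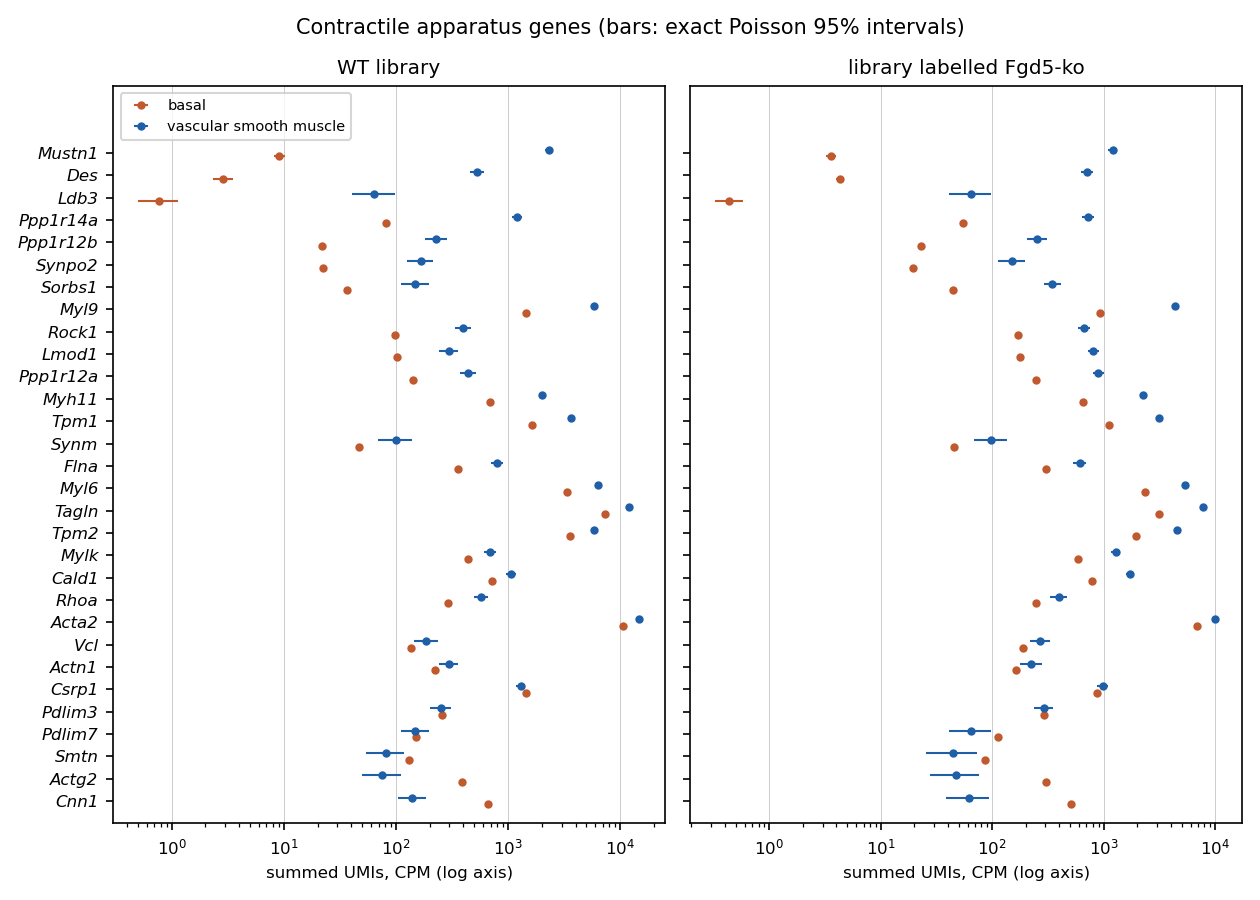
Summed UMIs of the 30 contractile apparatus genes in CPM on a log axis, for vascular smooth muscle (blue) and basal cells (orange) in each library, with exact Poisson 95% intervals as bars. Mustn1, Des and Ldb3 at the top differ most, and Cnn1 and Actg2 at the bottom are higher in basal cells in both libraries.

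Serum response factor drives many contractile genes by binding the CArG box, a short A- and T-rich element between CC and GG whose form is the same on both strands. The element was searched, on both strands, in the 250 bases before each RefSeq start (GRCm38.p6), a window found for 27025 genes. It occurred in 439 windows, 1.62% of all, and in 46 of the 2083 windows of genes averaging 50 CPM or more (2.21%). Among genes at least 4-fold higher in vascular smooth muscle cells 7 of 147 windows held it (4.76%), among those at least 4-fold lower 3 of 72 (4.17%). In the contractile list 4 of 25 did (16%): Ldb3, Myl6, Myl9 and Vcl. The 7 include Rergl, a rule gene whose ratio the selection fixed, so no order is read from the shares of the higher and lower genes. A match is a description of the letters, and no match says only that these letters are not in this window. The windows of Rergl, Myl9 and Ldb3 are shown because they belong to a gene of the rule, an abundant contractile gene and a gene nearly absent from basal cells. They lie at chr6:139501910-139502159 on the minus strand, chr2:156775214-156775463 on the plus strand and chr14:34588682-34588931 on the minus strand. Each is written 5′ to 3′ on the gene's strand with the CArG box in capitals, which begins 49, 161 and 35 bases before the start.
Rergl: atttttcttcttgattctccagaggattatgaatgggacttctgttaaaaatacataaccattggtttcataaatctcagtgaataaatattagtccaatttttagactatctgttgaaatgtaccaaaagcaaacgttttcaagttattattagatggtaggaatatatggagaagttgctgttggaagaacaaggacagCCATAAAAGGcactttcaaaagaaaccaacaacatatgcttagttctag
Myl9: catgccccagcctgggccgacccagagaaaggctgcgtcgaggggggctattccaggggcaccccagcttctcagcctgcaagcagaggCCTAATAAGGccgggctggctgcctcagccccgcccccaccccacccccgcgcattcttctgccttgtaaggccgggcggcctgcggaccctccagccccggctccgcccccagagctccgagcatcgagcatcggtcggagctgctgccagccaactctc
Ldb3: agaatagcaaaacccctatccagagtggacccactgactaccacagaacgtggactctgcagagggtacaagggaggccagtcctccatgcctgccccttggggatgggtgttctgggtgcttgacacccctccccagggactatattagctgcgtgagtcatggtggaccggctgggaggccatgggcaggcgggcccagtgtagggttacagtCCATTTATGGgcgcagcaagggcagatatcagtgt
Beside these windows, Rergl was 689-fold and 667-fold higher, Myl9 4.07-fold and 4.63-fold higher and Ldb3 83.3-fold and 146-fold higher in vascular smooth muscle cells. Srf itself, which encodes serum response factor, had log2 ratios of 0.02 (-0.86 to 0.77) and 0.15 (-0.72 to 0.90). Myocd, its coactivator myocardin, stood at 32.1 and 53.1 CPM (basal cells 0.415 and 0.464).

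Over the 2632 genes averaging 50 CPM or more over the 4 sums, 205 were at least 4-fold higher in vascular smooth muscle cells in both libraries (7.79%), 97 at least 4-fold lower (3.69%), and 1687 within 2-fold (64.1%). The 205 include the rule genes Pln, Rergl, Nrip2 and P2rx1, and the 97 include Krt5 and Krt14. With trimmed-mean (TMM) scaling the split was 173 higher and 128 lower, since that scaling moves the log2 ratios by -0.27 and -0.22. Outside the rule's own genes, the highest by the smaller of both ratios were Map3k7cl, a kinase-like gene of unclear role, Fam81a, Tesc, the noncoding Gm13861 and Rgs7bp, which anchors RGS proteins at the membrane. Map3k7cl stood at 292 and 391 CPM (basal cells 0.593 and 0.718), log2 ratios of 8.94 (8.24 to 9.72) and 9.09 (8.69 to 9.50). Olfr558, an olfactory receptor found in vessels, stood at 219 and 271 CPM (basal cells 0.83 and 0.735).

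Others in this group of 15 had known roles in metabolism, calcium signals or muscle. Ndufa4l2, a mitochondrial respiratory chain protein that is also among the listed pericyte markers, stood at 937 and 900.2 CPM (basal cells 4.00 and 4.30). Rcan2, an inhibitor of the calcium-activated phosphatase calcineurin, stood at 254 and 338 CPM (basal cells 1.13 and 1.08). Pcp4l1, related to a calmodulin regulator, stood at 818 and 573 CPM (basal cells 4.39 and 1.76). In each case both vascular smooth muscle values lay far above both basal values. Myl1, a light chain of fast skeletal muscle, stood at 222 and 97.8 CPM (basal cells 0.445 and 0.38). Slc11a1, a metal ion transporter better known from macrophages, stood at 201 and 139.8 CPM (basal cells 0.711 and 0.828). The antisense-annotated 9530034E10Rik stood at 134 and 75.5 CPM (basal cells 0.415 and 0.49); no label says whether the counting used strand, so its reads cannot be told from those of an overlapping gene. The same holds for Gm13861, which lies within Cald1, the gene of the actin-binding caldesmon, on the opposite strand.

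Among the genes lowest against basal cells, Slpi, a secreted protease inhibitor, stood at 29.2 and 25.2 CPM (basal cells 2179 and 1314), log2 ratios of -6.22 (-7.28 to -5.34) and -5.71 (-6.84 to -4.78). Krt17, a basal keratin outside the rule, stood at 61.3 and 151 CPM (basal cells 2276 and 2238), and after thinning 4.65% and 4.26% of vascular smooth muscle cells held it against 76.1% and 71.0% of basal cells and 2.06% and 4.91% of endothelial cells. In endothelial cells it stood at 19.2 and 36.2 CPM. Cxcl14, a chemokine of epithelium, stood at 78.8 and 154 CPM (basal cells 3173 and 1918). Apoe, the lipid carrier, stood at 397 and 626 CPM (basal cells 7296 and 6607). Apoe was found in 32 of 86 and 27 of 47 vascular smooth muscle cells, with 39.3% of its Fgd5-ko UMIs from 1 cell. Mdk, the growth factor midkine, had 4 and 3 UMIs and log2 ratios of -4.26 (-6.14 to -2.90) and -4.46 (-6.74 to -2.91). Stmn1, a microtubule regulator, was 12.7-fold and 19.6-fold lower.

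**Figure D3:**
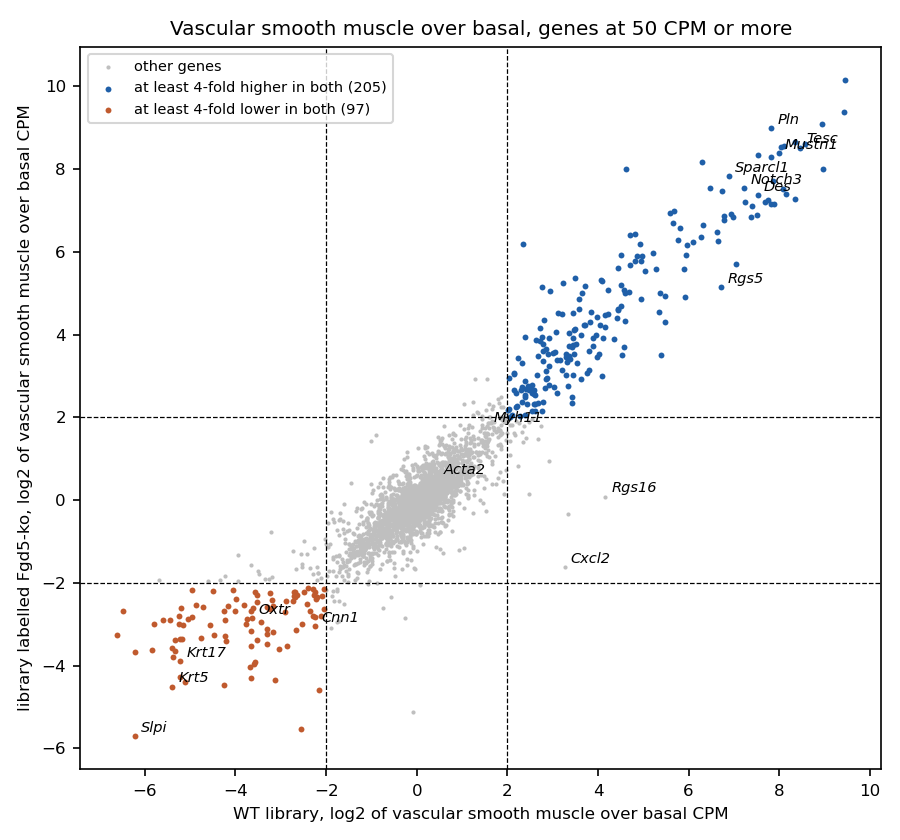
Log2 ratio of vascular smooth muscle over basal CPM for genes averaging 50 CPM or more, WT library on the horizontal axis and library labelled Fgd5-ko on the vertical axis, with dashed lines at 4-fold. The 205 genes at the upper right and 97 at the lower left are past 4-fold in both libraries, and Acta2 sits near the centre.

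Calcium handling and ion channel genes were mostly higher in the vessel cells. Of 24 listed genes 17 reached a mean of 20 CPM, and 12 of these were at least 4-fold higher, none at least 4-fold lower and 2 within 2-fold, with median log2 ratios of 3.49 and 4.53. Kcna5, a voltage-gated potassium channel that holds the resting potential, stood at 93.4 and 101 CPM (basal cells 0.385 and 0.304). Kcnab1, a beta subunit of such channels, stood at 119.7 and 83.9 CPM (basal cells 0.534 and 0.591). Kcnk3, the acid-sensitive leak channel TASK-1, stood at 93.4 and 64.3 CPM (basal cells 0.623 and 0.38).

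These 3 potassium channel genes were close to absent from basal cells of both libraries.

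Calcium entry and storage showed unequal differences among related genes. Cacnb2, a subunit of voltage-gated calcium channels, was 111-fold and 112-fold higher, and Cacna1c, the pore of the L-type channel, 3.48-fold and 7.04-fold higher. Atp2a3, the SERCA3 pump, stood at 96.4 and 69.9 CPM (basal cells 0.86 and 0.304), whereas Atp2a2, the SERCA2 pump that phospholamban regulates, stood at 329.9 and 408 CPM (basal cells 182 and 203), 1.81-fold and 2.01-fold higher. The pump pair thus differed in how far the cell types were apart. Itpr1, the release channel opened by inositol trisphosphate, was 5.98-fold and 6.36-fold higher. Casq2, calsequestrin, was 11.2-fold and 11.5-fold higher, and Ano1, a calcium-activated chloride channel, only 1.80-fold and 1.76-fold higher. Kcnma1, the pore of the large-conductance potassium channel, had 2 and 2 UMIs in vascular smooth muscle cells, too few for a ratio to be informative.

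Genes of cyclic nucleotide signalling were higher as well. Of 13 listed genes 9 reached 20 CPM, of which 6 were at least 4-fold higher and none lower, with median log2 ratios of 2.72 and 3.51. The soluble guanylate cyclase that senses nitric oxide has an alpha and a beta subunit. Gucy1a1 stood at 385 and 976 CPM (basal cells 9.28 and 30.1), log2 ratios of 5.38 (5.07 to 5.67) and 5.02 (4.85 to 5.18), and Gucy1b1 at 283 and 288 CPM (basal cells 12.2 and 25.2). The phosphodiesterases Pde3a and Pde5a, which break down cyclic AMP and cyclic GMP, were 28.1-fold and 55.3-fold higher and 10.7-fold and 14.1-fold higher. Prkg1, the kinase that cyclic GMP activates, was 2.86-fold and 2.30-fold higher, and Mrvi1, its substrate on the calcium store, 5.25-fold and 5.79-fold higher. For Gucy1a1, thinned shares were 34.9% and 55.3% in vascular smooth muscle, 0.617% and 2.34% in basal and 3.91% and 9.04% in endothelial cells (unthinned, 79.1% and 95.7%, 4.67% and 31.4% and 12.3% and 22.2%).

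Receptors for contractile signals separated the cell types in both directions. Of 28 listed receptors only 8 reached 20 CPM, with 6 at least 4-fold higher and 1, Oxtr, at least 4-fold lower. Oxtr, the oxytocin receptor, stood at 17.5 and 28.0 CPM (basal cells 219 and 202), log2 ratios of -3.64 (-5.09 to -2.52) and -2.86 (-3.92 to -1.98). After thinning it was detected in 1 of 86 and 2 of 47 vascular smooth muscle cells, in 19.7% and 16.9% of basal cells and in 0.0663% and 0.258% of endothelial cells. In each library 1 cell gave 50% of its UMIs.

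The 6 higher receptors were Npy1r, S1pr3, Ednra, Ednrb, S1pr1 and Avpr1a. Npy1r, the receptor for neuropeptide Y released by sympathetic nerves, stood at 201 and 431 CPM (basal cells 1.84 and 3.94). S1pr3, a receptor for sphingosine-1-phosphate, stood at 210.2 and 299 CPM (basal cells 0.771 and 1.63). Ednra, the endothelin receptor of muscle, stood at 140.1 and 157 CPM (basal cells 6.17 and 4.28). In each the values of the vessel cells exceeded those of basal cells in both libraries. Avpr1a, the vasopressin receptor, stood at 29.2 and 89.5 CPM (basal cells 0.771 and 0.338). Agtr1a, the angiotensin II receptor, fell just short of the mean of 20 CPM, at 35.0 and 41.9 CPM (basal cells 1.57 and 0.54). S1pr1 was 10.5-fold and 20.3-fold higher, but 1 cell gave 94.1% of its UMIs in the library labelled Fgd5-ko. The alpha-1 adrenergic receptors Adra1a, Adra1b and Adra1d, through which noradrenaline contracts arteries, did not reach the mean, with 2 and 2 UMIs for Adra1a, 6 and 8 for Adra1b and 1 and 2 for Adra1d.

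RGS proteins, which switch off G protein signals, numbered 7 in the list, all above 20 CPM, with 4 at least 4-fold higher and none lower, and median log2 ratios of 4.16 and 2.02. Rgs4 stood at 423 and 713 CPM (basal cells 2.52 and 5.15). Rgs5, prominent in mural cells, stood at 493 and 352 CPM (basal cells 4.68 and 9.89), with log2 ratios of 6.72 (6.40 to 7.04) and 5.15 (4.88 to 5.42). Rgs16 stood at 137 and 36.3 CPM (basal cells 7.68 and 34.2), so its ratio was 17.9-fold in the WT library and 1.06-fold in the other. Rgs10 was 2.37-fold and 3.20-fold lower.

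**Figure D4:**
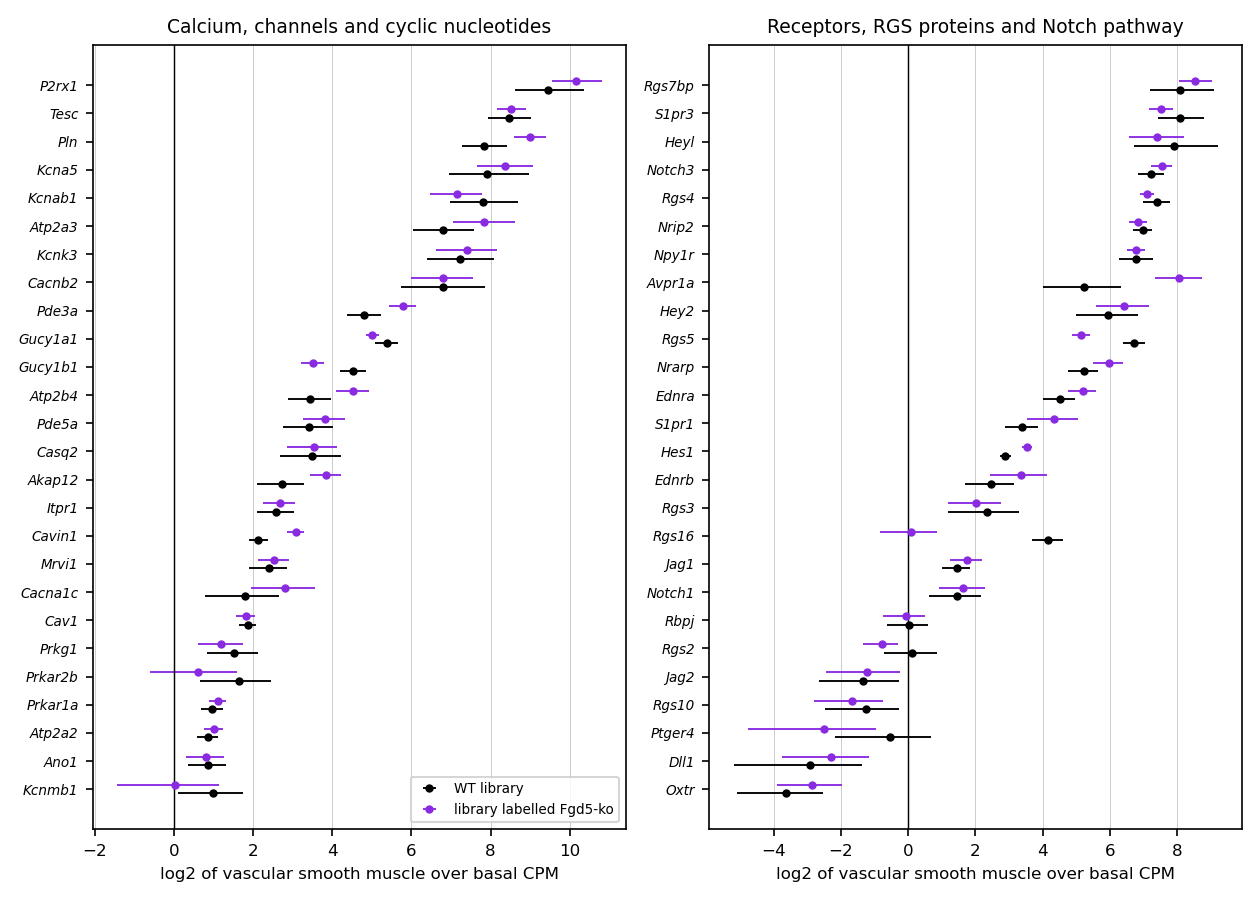
Log2 ratio of vascular smooth muscle over basal CPM with exact 95% intervals for members at 20 CPM or more of the calcium, channel and cyclic nucleotide lists (left) and of the receptor, RGS and Notch lists (right), with the WT library in black and the library labelled Fgd5-ko in purple. Most genes lie to the right of 0 in both libraries, and Oxtr and Dll1 lie furthest to the left.

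Transcription factors of muscle and mural cells were mostly higher. Of 24 listed genes 19 reached 20 CPM, 12 were at least 4-fold higher, none lower and 2 within 2-fold, with median log2 ratios of 3.49 and 3.54. Foxs1, a forkhead factor of perivascular cells, stood at 187 and 198 CPM (basal cells 1.13 and 1.72). Tbx2, a T-box repressor, stood at 152 and 185 CPM (basal cells 4.92 and 6.35). Both were low in basal cells. Mef2c, a muscle factor also used by endothelium, stood at 888 and 579 CPM (basal cells 79.9 and 50.2) and at 666 and 331 CPM in endothelial cells. Ebf1, a factor of stromal and mural cells, stood at 765 and 626 CPM (basal cells 29.1 and 7.43), and was higher still, 2531 and 1210.1 CPM, in the pericytes described below.

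The Notch pathway showed receptors and targets high and ligands mixed. Of 17 listed genes 11 reached 20 CPM, 6 were at least 4-fold higher, 1 lower and 1 within 2-fold, with median log2 ratios of 2.89 and 3.54. Notch3, the receptor of arterial smooth muscle, stood at 420.4 and 366 CPM (basal cells 2.82 and 1.97), log2 ratios of 7.22 (6.84 to 7.61) and 7.54 (7.22 to 7.86). Its thinned shares were 43.0% and 23.4% in vascular smooth muscle, 0.135% and 0.244% in basal and 2.59% and 2.33% in endothelial cells (unthinned, 74.4% and 85.1%, 1.04% and 1.92% and 8.29% and 13.2%). Thinned and unthinned shares order the 2 libraries differently, so no order is read from them. Among its targets, Heyl stood at 64.2 and 58.7 CPM (basal cells 0.267 and 0.346) and Hey2 at 52.6 and 50.3 CPM (basal cells 0.86 and 0.591). These targets were near 0 in basal cells. Nrarp, a target that feeds back on the pathway, stood at 172 and 139.8 CPM (basal cells 4.62 and 2.24). The ligand Jag1 was 2.72-fold and 3.33-fold higher, and Dll1, a ligand of mammary basal cells, stood at 8.76 and 16.8 CPM (basal cells 66.1 and 82.7). Rbpj, the DNA-binding partner of every Notch receptor, had log2 ratios of 0.02 (-0.62 to 0.60) and -0.08 (-0.74 to 0.51).

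Growth factor genes differed less. Of 20 listed 13 reached 20 CPM, 3 were at least 4-fold higher and 1, Pdgfc, lower. Over all genes at that mean the shares were 7.03% and 3.61%. Pdgfrb, the receptor by which endothelial PDGF-B recruits mural cells, stood at 146 and 168 CPM (basal cells 5.72 and 5.14). Its ligand gene Pdgfb stood at 17.5 and 58.7 CPM (basal cells 39.99 and 44.6) and at 97.5 and 111 CPM in endothelial cells. Angpt1, the ligand of the endothelial receptor Tie2, stood at 38.0 and 55.9 CPM (basal cells 1.60 and 1.65).

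Basement membrane and matrix genes split by chain. Of 43 listed 32 reached 20 CPM, with 6 at least 4-fold higher, 5 lower and 10 within 2-fold. Over all genes at that mean the shares were 7.03%, 3.61% and 59.6%. The median log2 ratios were 0.50 and 0.12, of which the latter is smaller than the shift that TMM scaling makes. Sparcl1, a secreted matricellular protein, stood at 2447 and 3416 CPM (basal cells 20.7 and 15.1), log2 ratios of 6.89 (6.74 to 7.03) and 7.82 (7.72 to 7.93). Aspn, the small proteoglycan asporin, stood at 663 and 629 CPM (basal cells 7.41 and 3.36). Lamb2, the laminin beta chain of vessel walls, was 6.29-fold and 8.15-fold higher, while Lamb3, an epithelial laminin chain, was 16.5-fold and 4.49-fold lower. Postn, periostin, stood at 78.8 and 33.5 CPM (basal cells 496 and 295). Laminin chains thus differed in opposite directions. Col4a1, a chain of the collagen IV network common to all basement membranes, had log2 ratios of 0.15 (-0.11 to 0.40) and -0.29 (-0.53 to -0.06). Matrix genes of fibroblasts rested on single cells: 72% and 100% of Col1a1 UMIs and 51.0% and 91.2% of Dcn UMIs came from 1 cell.

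Adhesion genes included the surface proteins of the sort. Itgb1, which encodes CD29, stood at 958 and 875 CPM (basal cells 454 and 379.9), and after thinning was found in 68.6% and 66.0% of vascular smooth muscle, 36.4% and 31.8% of basal and 37.3% and 37.0% of endothelial cells. Cd24a, which encodes CD24, stood at 14.6 and 30.8 CPM (basal cells 141 and 114) . After thinning it was found in 1 of 86 and 0 of 47 vascular smooth muscle cells, 13.1% and 10.6% of basal and 13.1% and 5.68% of endothelial cells, and the count of 0 of 47 allows up to 6.38% by the same floor. Unthinned, Cd24a was found in 3 of 86 and 8 of 47 vascular smooth muscle cells. It was found in 47.5% and 67.0% of basal and 38.9% and 35.1% of endothelial cells. The label of the sort calls for high CD24 protein. After thinning, endothelial and basal shares were alike at 13.1% in the WT library, so the endothelial share is no baseline for Cd24a RNA. The vascular smooth muscle share lay below both there, and in the other library the limit of 6.38% exceeds the endothelial 5.68%. Itga7, the laminin-binding integrin of muscle, stood at 123 and 126 CPM (basal cells 0.593 and 0.853), and Itga6, that of basal epithelium, at 17.5 and 97.8 CPM (basal cells 199.5 and 320.5). Of 15 integrins 8 reached 20 CPM, and 3 were at least 4-fold higher and none lower. The gap junction genes Gja4 and Gjc1 of vessel walls were 68.9-fold and 75.5-fold higher and 30.7-fold and 54.9-fold higher, and Gja1, which couples myoepithelial cells, was 11.6-fold and 4.93-fold lower. Of 18 cadherin and junction genes 11 reached 20 CPM, with 5 at least 4-fold higher and 4 lower. Beside both lists, 7.03% of all genes at that mean were at least 4-fold higher and 3.61% lower.

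Basal identity genes were low as a group. Of 27 listed 21 reached 20 CPM, 17 were at least 4-fold lower and none higher, with median log2 ratios of -3.58 and -3.37. Trp63, the master regulator of basal epithelium, had 1 and 2 UMIs in vascular smooth muscle cells, and log2 ratios of -5.02 (-10.32 to -2.54) and -4.01 (-7.05 to -2.15). Epcam, the epithelial adhesion protein, stood at 8.76 and 50.3 CPM (basal cells 331 and 400.4). Sfn, an epithelial 14-3-3 protein, stood at 38.0 and 103 CPM (basal cells 1369 and 1066). These residual values were higher in the Fgd5-ko library, in which the basal cells were also deeper, and 1 cell there gave 51.9% of the Krt17 UMIs. The part of free RNA or of mixed barcodes in them was not tested. All 3 luminal markers above 20 CPM, Krt8, Krt18 and Krt19, were at least 4-fold lower too.

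Genes of cell state differed from the basal level to unequal extents. Of 18 immediate early genes 9 were within 2-fold in both libraries, with median log2 ratios of 0.61 and 0.56. Fos, an AP-1 subunit induced by handling and by stimulation, stood at 5866 and 10503 CPM (basal cells 4555 and 7356). Klf2, a factor induced by blood flow, was the 1 gene at least 4-fold higher, at 2114 and 2499 CPM (basal cells 189 and 142). Egr2, a zinc finger factor, was the 1 gene at least 4-fold lower. Of 12 heat shock genes 11 reached 20 CPM, 6 were within 2-fold and none passed 4-fold, with median log2 ratios of -0.77 and -0.37. In the NF-kB list, 14 of 16 reached 20 CPM, 1 was at least 4-fold higher, 2 lower and 3 within 2-fold. The higher was Il6, the cytokine interleukin 6, at 137 and 165 CPM (basal cells 3.38 and 7.11), and Icam1, an adhesion molecule for leukocytes, stood at 26.3 and 64.3 CPM (basal cells 331 and 412). Vcam1, a similar molecule, had 2 and 4 UMIs and log2 ratios of -2.85 (-5.90 to -0.99) and -2.98 (-4.86 to -1.63). Beside these counts, 7.03% of all genes at 20 CPM were at least 4-fold higher, 3.61% lower and 59.6% within 2-fold. Counts of 1 or 2 genes past 4-fold are therefore not read as results about these lists.

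Antigen presentation genes differed from basal cells unequally in the 2 libraries. Of 14 listed 12 reached 20 CPM and none passed 4-fold in both, with median log2 ratios of 0.34 and -1.04. B2m, the light chain of MHC class I, stood at 403 and 324 CPM (basal cells 268 and 791). Psmb8, an immunoproteasome subunit, stood at 52.6 and 28.0 CPM (basal cells 50.01 and 116). In both cases the basal value was the one that differed more between libraries. Of 16 interferon response genes 8 reached 20 CPM and 1, Isg15, was at least 4-fold higher, at 131 and 137 CPM (basal cells 20.6 and 26.7). Over all genes at that mean the share was 7.03%. Many cell cycle genes were not detected at this depth: 10 and 8 of 16 cell cycle genes had 0 UMIs, among them Mki67 and Top2a, where the floor of 3 counts is 8.76 and 8.39 CPM. In basal cells Mki67 stood at 11.2 and 87.5 CPM.

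Pericytes are the other mural cells, wrapping capillaries, and the rule set them apart by the summed UMIs of Kcnj8, Abcc9 and Higd1b. Barcodes with at least 3 UMIs of those genes, at least as many as of the vascular smooth muscle genes, and fewer than 10 keratin UMIs numbered 242 and 141. Of these, 147 and 77 also held at least 3 endothelial UMIs and 50 and 57 at least 10 fibroblast UMIs, so that class is mixed. The 8 genes lowest against it, Cxcl13, Cd300lg, Lrg1, Itm2a, H2-M9, Plvap, Sfrp2 and Nr1h3, include genes of vessel lining and of stroma (Cd300lg, Lrg1, Plvap and Sfrp2). Against that mixed class 81 of 2910 genes (2.78%) were at least 4-fold higher in both libraries and 102 (3.51%) lower. A set chosen after seeing this, with fewer than 3 endothelial and fewer than 10 fibroblast UMIs, left 58 and 16 pericytes. Against it, 34 of 2776 genes (1.22%) were at least 4-fold higher in vascular smooth muscle cells in both libraries and 43 (1.55%) lower. Both higher counts include Pln, Rergl, Nrip2 and P2rx1 and both lower counts Kcnj8 and Abcc9, all genes of the rule. Higd1b, also a gene of the rule, stood at 209 and 85.5 CPM in the mixed class and at 382 and 319 in the 58 and 16 pericytes. In vascular smooth muscle cells it stood at 111 and 78.3 CPM and was found in 28 of 86 and 19 of 47 cells. Its detection is thus not confined to pericytes, and its levels, which the rule used, are a description only. Of 8 pericyte markers at 20 CPM, 7 were at least 4-fold higher in vascular smooth muscle than in basal cells, beside 7.03% of all genes.

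Several mural genes were also found in these 58 and 16 cells. Notch3 stood at 282 and 232 CPM in them, Des at 382 and 523 and Gucy1a1 at 319 and 774. Rgs5 was higher there, at 1252 and 1801 CPM. Acta2, which the rule fixes on 1 side, stood at 1657 and 2914 CPM and Myh11 at 164 and 503. The genes highest against them included Sorbs2, an actin adaptor, at 429 and 489 CPM against 22.8 and 48.4, and Rbm24, a muscle splicing factor, at 96.4 and 151 against 0 and 19.4. Kcna5 stood at 93.4 and 101 against 0 and 9.68 CPM. Among the lowest, Ccl11, the eosinophil chemokine eotaxin, stood at 20.4 and 8.39 CPM against 401 and 1171, and Cxcl10, an interferon-induced chemokine, at 20.4 and 5.59 against 323 and 445. Lists were also counted against these pericytes, over members at 20 CPM or more. Of 30 contractile genes 4 and of 17 calcium and channel genes 5 were at least 4-fold higher, none lower. None of 10 cyclic nucleotide genes passed 4-fold (median log2 ratios 0.14 and -0.07), nor any of 20 muscle and mural regulators (0.44 and 0.11). Of 9 receptors none was higher and 1 lower, with medians of -2.23 and -0.28. Of all genes at 50 CPM, 1.22% were higher and 1.55% lower. No such share was counted at 20 CPM, so the list counts cannot be set against these directly. The 16 cells of the library labelled Fgd5-ko make its values coarse, 1 UMI being worth 9.68 CPM.

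Among the vascular smooth muscle cells themselves, contractile levels varied widely. Per 10000 UMIs, Acta2 had medians of 142 (21.2 to 379.7) and 110.3 (29.6 to 257) over cells, lowest and highest cell in brackets. Myl9 had medians of 56.4 (7.08 to 141) and 42.0 (11.3 to 109), and Mustn1 of 22.7 (0 to 64.5) and 12.7 (0 to 28.8). The ranges of Acta2 in basal cells, 91.6 (3.54 to 410.4) and 64.6 (3.05 to 242), overlapped those of the vascular smooth muscle cells, so Acta2 alone does not separate the classes. For Mustn1 the basal median was 0 in both libraries. Crip1, a small LIM protein, had medians of 147 (34.2 to 373) and 67.6 (8.69 to 123) in vascular smooth muscle cells and of 0 in basal cells.

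Between the libraries, 91 of 1385 genes averaging 100 CPM or more over the 2 vascular smooth muscle sums were at least 2-fold higher under the Fgd5-ko label (6.57%) and 100 at least 2-fold lower (7.22%). With 1 library per genotype these values compare 2 libraries, and genotype, depth and preparation cannot be told apart. The 4 rule genes were within 2-fold: Pln stood at 263 and 361 CPM, Rergl at 225 and 399.8, Nrip2 at 768 and 450.1 and P2rx1 at 289 and 279.6. At a mean of 20 CPM, where 11.5% of 5535 genes were at least 2-fold higher and 7.41% lower, 3 of the 30 contractile genes were higher and 2 lower. Lmod1, which nucleates actin filaments, was the highest of them at 295 and 805 CPM, a log2 ratio of 1.45 (1.12 to 1.79), beside 0.81 in basal and 1.40 in endothelial cells. Cnn1 and Pdlim7 were the lower 2, at 140.1 and 61.5 and at 149 and 64.3 CPM.

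Some of the named higher genes were spread over cells. Gdpd3, a lysophospholipase, had 2 and 77 UMIs, in 2 and 30 cells, a log2 ratio of 5.20 (3.30 to 8.28), beside 1.36 in basal and 6.12 in endothelial cells. Lars2, a mitochondrial tRNA ligase, stood at 73.0 and 895 CPM, a ratio of 3.62 (3.03 to 4.26), beside 2.38 and 3.38. Gm42418, which overlaps ribosomal RNA sequence, stood at 4785 and 33309.5 CPM, a ratio of 2.80 (2.72 to 2.87), beside 1.69 and 2.63. In all 3 classes the value was the higher in the library labelled Fgd5-ko. Neat1, a nuclear long noncoding RNA, stood at 70.1 and 408 CPM, a ratio of 2.54 (1.91 to 3.23), beside 2.72 and 1.74. Ddit4, an inhibitor of mTOR signalling induced by stress, stood at 117 and 537 CPM, a ratio of 2.20 (1.70 to 2.73), beside 1.30 and 0.76. Gucy1a1 stood at 385 and 976 CPM, a ratio of 1.34 (1.05 to 1.64), beside 1.70 and 1.12. All of these classes share the same 2 libraries, so the values stand side by side and are not independent.

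Others rested on few cells. Cd74, the MHC class II chaperone, had 72 of its 75 UMIs in the library labelled Fgd5-ko in 1 cell. Lcn2, the acute-phase protein lipocalin 2, stood at 20.4 and 355 CPM in vascular smooth muscle and at 1824 and 2287 CPM in basal cells, and 39 of its 127 UMIs in the Fgd5-ko library came from 1 of 15 cells. In the other direction, Ccl4, a chemokine of immune cells, had 80 of 80 UMIs in 1 WT cell. Igfbp6, an IGF-binding protein, had 63 of 73 in 1 WT cell, and Col3a1, fibrillar collagen III, 68 of 117. Of the 91 higher genes 3, and of the 100 lower genes 5, had at least 50% of the UMIs of the higher library from 1 cell.

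Other lower genes were found across many cells. Gstp1, a glutathione transferase, stood at 172 and 28.0 CPM, in 44 and 9 cells, a log2 ratio of -2.62 (-3.76 to -1.64), beside -2.79 in basal and -2.49 in endothelial cells. Ndufa3, a subunit of respiratory complex I, stood at 321 and 53.1 CPM, a ratio of -2.60 (-3.38 to -1.89), beside -1.71 and -1.79. Glycam1, an adhesion glycoprotein that endothelial cells of this suspension held at 88752 and 45881 CPM, stood at 189.8 and 25.2 CPM here and at 910.0 and 123 in basal cells.

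By list, the matrix genes had 1 of 29 at least 2-fold higher and 12 lower, with a median log2 ratio of -0.57, beside -0.72 in basal and -0.30 in endothelial cells. Of all 5535 genes at a mean of 20 CPM, 11.5% were at least 2-fold higher and 7.41% lower. The endothelial markers had 4 of 6 lower and none higher, and the fibroblast markers 6 of 7 lower and none higher. At least 3 UMIs of Pecam1, Cdh5 and Kdr were found in 10 and 3 cells. In the WT library 1 cell gave 72% of Col1a1 and 58.1% of Col3a1 UMIs. For Col1a2 1 cell gave 54.4% and 51.1%, and for Dcn 51.0% and 91.2%. The part of such cells in the endothelial, fibroblast and matrix counts was not tested. Of 18 immediate early genes 4 were at least 2-fold higher and none lower, with a median of 0.84, beside 0.61 in basal and 0.83 in endothelial cells. Of 9 basal identity genes at that mean 6 were higher and none lower, with a median of 1.21, beside 0.05 in basal and -0.38 in endothelial cells. The calcium and channel list had none of 20 higher and 1 lower, Kcnmb1, a subunit of the large-conductance potassium channel that had 14 and 6 UMIs.

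**Figure D5:**
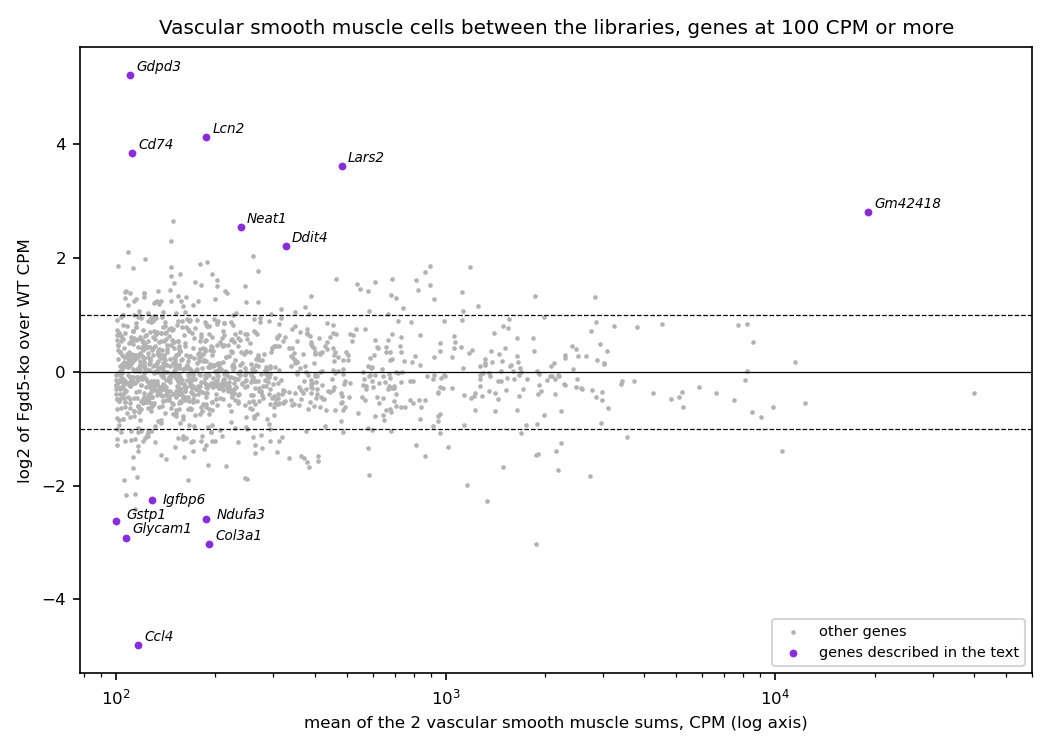
Log2 ratio of Fgd5-ko over WT CPM within vascular smooth muscle cells, against the mean of both sums in CPM on a log axis, for genes averaging 100 CPM or more; dashed lines mark 2-fold, and purple points are the genes described in the text out of the 10 highest and 10 lowest. Gdpd3 lies highest and Ccl4, found in 1 WT cell, lowest among the purple points.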

How the data were processed

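The authors deposited, for each of the 2 libraries, a matrix of raw UMI counts per gene and barcode, not normalized; the file header gives software version 3.1.0. The mm9 build, Seurat 3.0 and Cell Ranger appear, with no role stated, per the submitters' processing notes. Their table of cells, with t-SNE coordinates that have no unit, was used only to see which barcodes it lists. The annotation and any use of strand in counting: not given in the sources used here.

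Cells were chosen by the rule given at the opening. UMIs were summed per library and class and divided by the class total (CPM), with exact Poisson intervals for sums, exact conditional intervals for ratios and Clopper-Pearson intervals for shares (95%). A class at 0 was set to a floor of 3 counts per sum, and the limit given for a share of 0 is 3 counts of the total. There was no test, because each group is 1 library. Called genes were at least 4-fold apart from basal cells in both libraries (mean of at least 50 CPM over 4 sums), or at least 2-fold apart between libraries (mean of at least 100 CPM over 2 sums). Lists were counted over members with a mean of at least 20 CPM. Counts of called genes include the rule's genes. Named genes were the rule's genes and markers, the 15 highest and 15 lowest against basal cells, the 8 and 8 against pericytes, and the 10 and 10 between libraries, leaving out ribosomal, mitochondrial, haemoglobin and sex-linked genes; list members could also be named. Crip1 was chosen after its values were seen. Of the genes so picked, 1 is not reported here. The members and lists were chosen with earlier results of these data known.

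The interval code was tested on simulated data. The tools were edgeR 4.0.16 for TMM factors alone, matplotlib 3.10.9, pandas 2.3.3, SciPy 1.17.1, NumPy 2.4.6 and Python 3.11.15. Promoter windows are RefSeq sequence of GRCm38.p6, matched by symbol. Alternatives changed the rule's limits, filters, depth, scaling and the reference class. The cleaned pericytes, the set without cells that carry other types and the set without each gene's highest cell were added after the data were seen.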

Additional observations from a re-analysis of the deposited data

Results flagged for a closer look

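For 3 genes the vascular smooth muscle over basal ratio lay on opposite sides of equality in the 2 libraries, with 95% counting intervals that left out equality in each. The difference between libraries was not tested, since each is 1 library. Fbn1, which encodes the microfibril protein fibrillin 1, had log2 ratios of 1.05 (0.48 to 1.56) and -1.15 (-2.37 to -0.17), and 1 cell held 83.9% of its UMIs in the WT library. H2-Q7, an MHC class I gene, had log2 ratios of 2.05 (0.97 to 2.95) and -2.72 (-4.59 to -1.36), on 10 and 4 UMIs. Reads of near-identical H2-Q copies can be split by the counting, so its values are uncertain. Cxcl2, a neutrophil chemokine, had a log2 ratio of 3.26 (2.86 to 3.64) in the WT library, where 44 of its 62 UMIs came from 1 cell, and no UMI in the library labelled Fgd5-ko, a ratio of at most -1.62 with the floor of 3 counts.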

How the results depend on the processing

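The number of vascular smooth muscle cells ran from 92 to 148 over 10 other limits of the rule, against 133. Genes at least 4-fold higher than basal cells numbered 173 to 210 over 16 alternatives and those lower 68 to 137, against 205 and 97. The counts between libraries were 69 to 121 and 83 to 114 over 14 alternatives, against 91 and 100. Thinning each cell to 1000 UMIs gave 195 higher and 163 lower between libraries, on fewer UMIs. The counts moved with the CPM minimum. A minimum of 20 CPM gave 393 higher and 202 lower against basal cells, and 634 and 410 between libraries. A minimum of 200 CPM gave 48, 29, 43 and 47 in that order, and no filter beyond 3 UMIs 857, 253, 1440 and 1013. Without cells that carry other types, 68 and 39 cells remained, with 194 and 118 genes against basal cells and 117 and 90 between libraries. Of the genes named by rank, none changed direction against basal cells. Between libraries, Cd74 turned to -0.73 without the 5% of cells with the most UMIs and to -0.60 with cells of 2000 to 12000 UMIs, and Igfbp6 to 0.68 and 0.81, since each rested on 1 deep cell. Median-ratio scaling moves log2 ratios by -0.23 and -0.12 against basal cells and by -0.11 between libraries, TMM between libraries by -0.10. Vascular smooth muscle and basal sums were compared within each library. With 1 library per genotype no replicated test, paired or not, was possible. Depth limits every gene under the floor of 3 counts, and 47 cells in 1 library leave shares with wide intervals.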
